A study of Mus musculus with 108 samples.

Results

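The comparison was between the optic nerve head (ONH) of eyes with moderate glaucoma and the ONH of eyes with no or early glaucoma. It rested on 30 of the 108 arrays of the series, chosen by their titles: 9 moderate arrays, 10 arrays titled no or early 1 and 11 titled no or early 2. The mean of each no or early set had the same weight in the reference. All 30 arrays came from female DBA/2J mice aged 10.5 months, and 48 arrays of the series measured the retina of eyes whose ONH was also measured. The moderate arrays came from 9 mice and the no or early arrays from 20 mice, of which 1 gave both eyes to set 2, and no mouse gave eyes to both sides of the comparison. The labels do not explain why the no or early eyes form 2 sets. Other ONH arrays named beside the results are 10 severe arrays of the same strain, sex and age, and 10 arrays of D2-Gpnmb+ females of that age. D2-Gpnmb+ mice are DBA/2J mice in which Gpnmb works, and they do not develop this glaucoma.

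DBA/2J mice carry mutations in the pigment genes Gpnmb and Tyrp1. Pigment is shed from the iris, eye pressure rises, and the axons of retinal ganglion cells, the output neurons of the retina, are lost. In the mouse those axons leave the eye through a lamina of astrocytes in the ONH, with no myelin around them there, and this lamina is regarded as an early site of axon damage. Astrocytes of the lamina normally supply the axons with metabolites and buffer ions around them, and after injury they become reactive, secrete matrix and cytokines and can re-enter the cell cycle. Severity in this strain is commonly graded from the optic nerve behind the eye; the labels used here do not say how these eyes were graded.

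Per the labels' protocols, the sample was a punch centred on the optic nerve that also took small pieces of central retina, choroid and sclera. Most astrocyte markers were high over the 30 arrays (mean log2 signal 11.05 for Gfap, 11.46 for Slc1a3, 10.06 for Aqp4 and 10.19 for S100b). Aldh1l1, another astrocyte marker, had a middling mean of 6.96. The myelin genes Mag and Mog, with means of 3.09 and 3.43, were near the bottom of the scale while Mbp stood at 9.51. Rod genes (Sag 12.41, Gnat1 11.62), the pigment epithelium gene Rpe65 (10.78) and the fibroblast gene Dcn (12.08) were also well detected, so the punch held other tissues as the protocol says. Muscle, lens and red cell markers (Acta1, Cryaa and Hba-a1) had means of 3.40, 3.59 and 2.72. The values are log2 RMA signals, and array medians lay between 4.88 and 5.23 over the ONH arrays. No counts or depth stand behind such values, and the number of arrays limits the precision.

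One moderate array stood apart from the other 8. Of the 49 genes that rose at least 2-fold with an adjusted p below 0.05, moderate replicate 5 lay above the midpoint between the group means in 8, while the other moderate arrays did so in 38 to 49. Of the 24 genes that fell as far, it lay below the midpoint in 1, against 7 in moderate replicate 4 and 19 to 24 in the other 7. On the reference side, 4 arrays lay toward the moderate group on the risen genes, namely no or early 2 replicates 2, 4 and 8 with 34, 31 and 24 of the 49 and no or early 1 replicate 3 with 15. On the fallen genes, no or early 2 replicate 7 was below the midpoint in 14 of 24. These positions use the genes that the comparison itself selected and are a description. Results are given below with all 9 moderate arrays and, where the array changes them, without replicate 5.

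**Figure D1:**
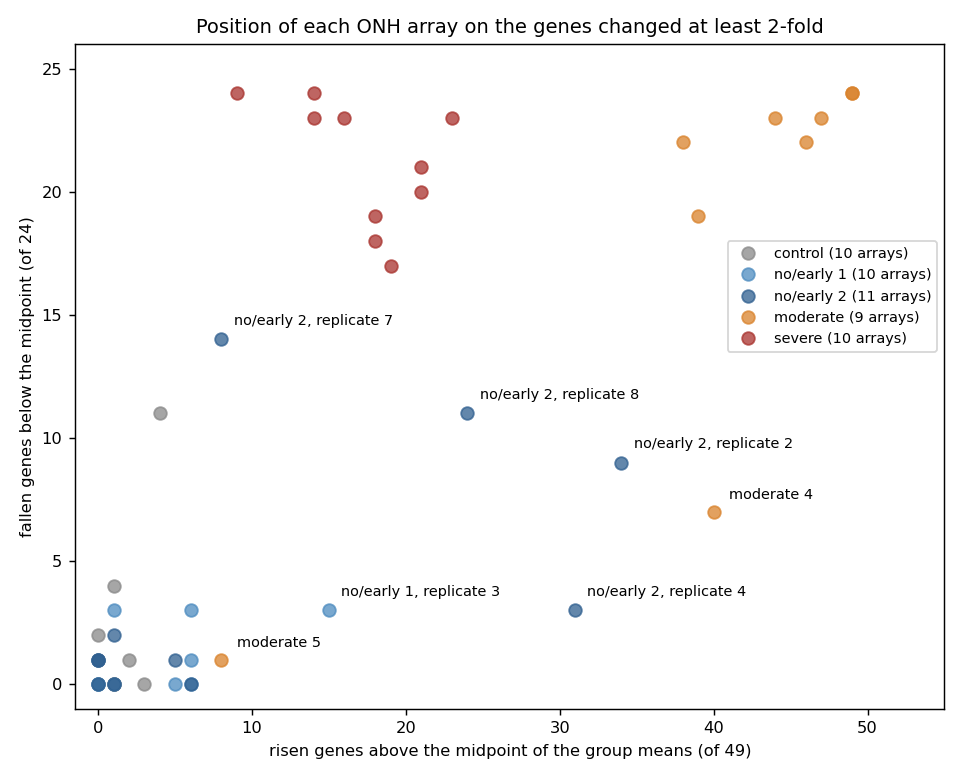
Each point is 1 ONH array. The x axis counts the risen genes (of 49) above the midpoint between the moderate and the no or early mean, and the y axis counts the fallen genes (of 24) below their midpoint. Moderate replicate 5 sits at 8 and 1 among the no or early arrays, and the severe arrays sit at 9 to 23 on the x axis but at 17 to 24 on the y axis.

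Over all genes, 12100 were tested with limma in 1 fit over the 60 ONH arrays, and a gene was called changed at a Benjamini-Hochberg adjusted p below 0.05. In total 7.47% of the tested genes were called, 2.85% as higher and 4.62% as lower in moderate eyes. At least 2-fold changes made up 0.405% and 0.198%, and the median difference over all genes was 0 on the log2 scale. Without moderate replicate 5, 1409 genes were called in place of 904, 866 of them in both fits in the same direction. The shares were then 4.79% higher and 6.86% lower. Only Sox11 lay above every no or early array on all 9 moderate arrays, and only Kif21a lay below (0.00826% of tested genes in each direction). Over the 8 arrays without replicate 5, Calcb, Cdk1, Dtl, Mthfd2, Prc1, Sox11, Spcs3 and Tnc lay wholly above (0.0661%), and Cldn10, Flrt1, Htr1b, Id4, Kif21a, Ppp1r1b and Sowaha wholly below (0.0579%). The genes of this last pair of lists that no rule had named were picked after their values were seen.

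Single genes for secreted peptides and growth factors were among the steepest rises, while most genes of their families did not pass. Calcb codes for the beta form of calcitonin gene-related peptide, a vasodilator. On the 21 no or early arrays its log2 signal had a lowest value of 2.85, a median of 3.53 and a highest value of 5.94. On the moderate arrays it ran from 3.58 through a median of 8.29 to 9.83. The value of 3.58 was that of replicate 5, and the other 8 moderate arrays began at 7.46, above every reference array. The difference was 4.38 ± 0.39 (SE), or 20.9-fold, with a limma adjusted p of 3.28e-12, and 4.95 ± 0.306 without replicate 5. Calcb was the only 1 of 7 tested members of the calcitonin gene family to pass, and the median of the family was 0.04.

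Edn2, which codes for the vasoconstrictor endothelin 2, behaved otherwise on replicate 5. Its no or early values ran from 3.15 through a median of 4.62 to 7.58, and its moderate values from 6.47 through 7.31 to 8.53. Replicate 5 had 7.67, inside the range of the other moderate arrays, and 3 moderate arrays exceeded every reference array. The difference of 2.38 ± 0.45 (adjusted p = 0.000244) kept its size without replicate 5 (2.33). Among the 6 tested genes of the endothelin system, Edn2 alone rose. The ligand gene Edn3 fell by 0.59 ± 0.17 and the receptor gene Ednrb by 0.19 ± 0.06 on the log2 scale (adjusted p = 0.022 and 0.047). Among 30 fits that each left out 1 array, Edn3 was called in 26 and not without moderate replicate 2, 5, 8 or 9 (-0.67 to -0.48), and Ednrb in 10 (-0.23 to -0.17).

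Of 11 tested genes of the epidermal growth factor family, which holds ligands and receptors, 3 rose and all 3 code for ligands. The filter on low signal can be met by the moderate arrays alone. Without the 1 member that met it so, 2 of 10 rose. Ereg (epiregulin) had no or early values of 2.65, 3.54 and 6.38 as lowest, median and highest, and moderate values of 3.58, 6.77 and 7.30. Most moderate arrays were high, 5 of them above every reference array, while replicate 5 was level with the reference median. The difference was 2.34 ± 0.36 (adjusted p = 1.23e-05). Btc (betacellulin) rose by 1.03 ± 0.26 and Hbegf (heparin-binding EGF-like growth factor) by 0.71 ± 0.20 (adjusted p = 0.00632 and 0.02), the latter call being lost without moderate replicate 4, 7, 9 or 10 (0.63 to 0.84 over the 30 fits). Of 21 tested genes of the fibroblast, hepatocyte, platelet-derived and vascular endothelial growth factor families, none rose and 8 fell. That list goes by family name and not by whether a product is secreted. Among the 8 were Fgf12 (-1.01), Fgf14 (-0.54), the platelet-derived factor gene Pdgfd (-0.37), and Vegfa (-0.26). Leaving out 1 array ended the call on Fgf14 in 13 of 30 fits, on Fgf12 without moderate replicate 8 and on Vegfa without replicate 1, 2, 3, 4 or 10.

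Cytokines of the interleukin 6 family signal through a shared receptor chain to STAT3, the pathway that drives reactive change in astrocytes. Of 19 tested genes of this family and pathway, 7 rose and 1 fell, with a median of 0.18. Of these 19, 2 met the filter only through the moderate arrays. Of the other 17, 5 rose and 1 fell (median 0.13). Lif, a leukaemia inhibitory factor gene, ran from 4.18 through 5.29 to 6.71 on the reference arrays and from 4.92 through 7.44 to 8.42 on the moderate arrays. There 7 of the 9 moderate arrays lay above all 21 reference arrays. The difference was 1.82 ± 0.28 (adjusted p = 1.34e-05). Il11 (interleukin 11) rose by 1.55 ± 0.25 (adjusted p = 2.96e-05) and Clcf1, a ligand of the ciliary neurotrophic factor receptor, by 0.66 ± 0.14 (adjusted p = 0.00174). Their receptor chains moved less: Osmr rose by 0.40 ± 0.13 (adjusted p = 0.0449), Lifr fell by 0.21 ± 0.07 (adjusted p = 0.0367), and Il6st differed by 0.05 (adjusted p = 0.81). The transcription factor gene Cebpd rose by 0.88 ± 0.24, Bcl3 by 0.77 ± 0.21 and the feedback inhibitor gene Socs3 by 0.73 ± 0.24 (adjusted p = 0.0137, 0.0115 and 0.047). In the 30 fits that each left out 1 array, Lifr was called in 23 (-0.24 to -0.18), Osmr in 11 (0.34 to 0.48) and Socs3 in 10 (0.62 to 0.82). Lcn2, a target of such cytokines, ran from 5.29 to 10.42 on the reference arrays and from 7.25 to 9.90 on the moderate arrays, and its difference of 0.56 ± 0.52 did not pass (adjusted p = 0.601).

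**Figure D2:**
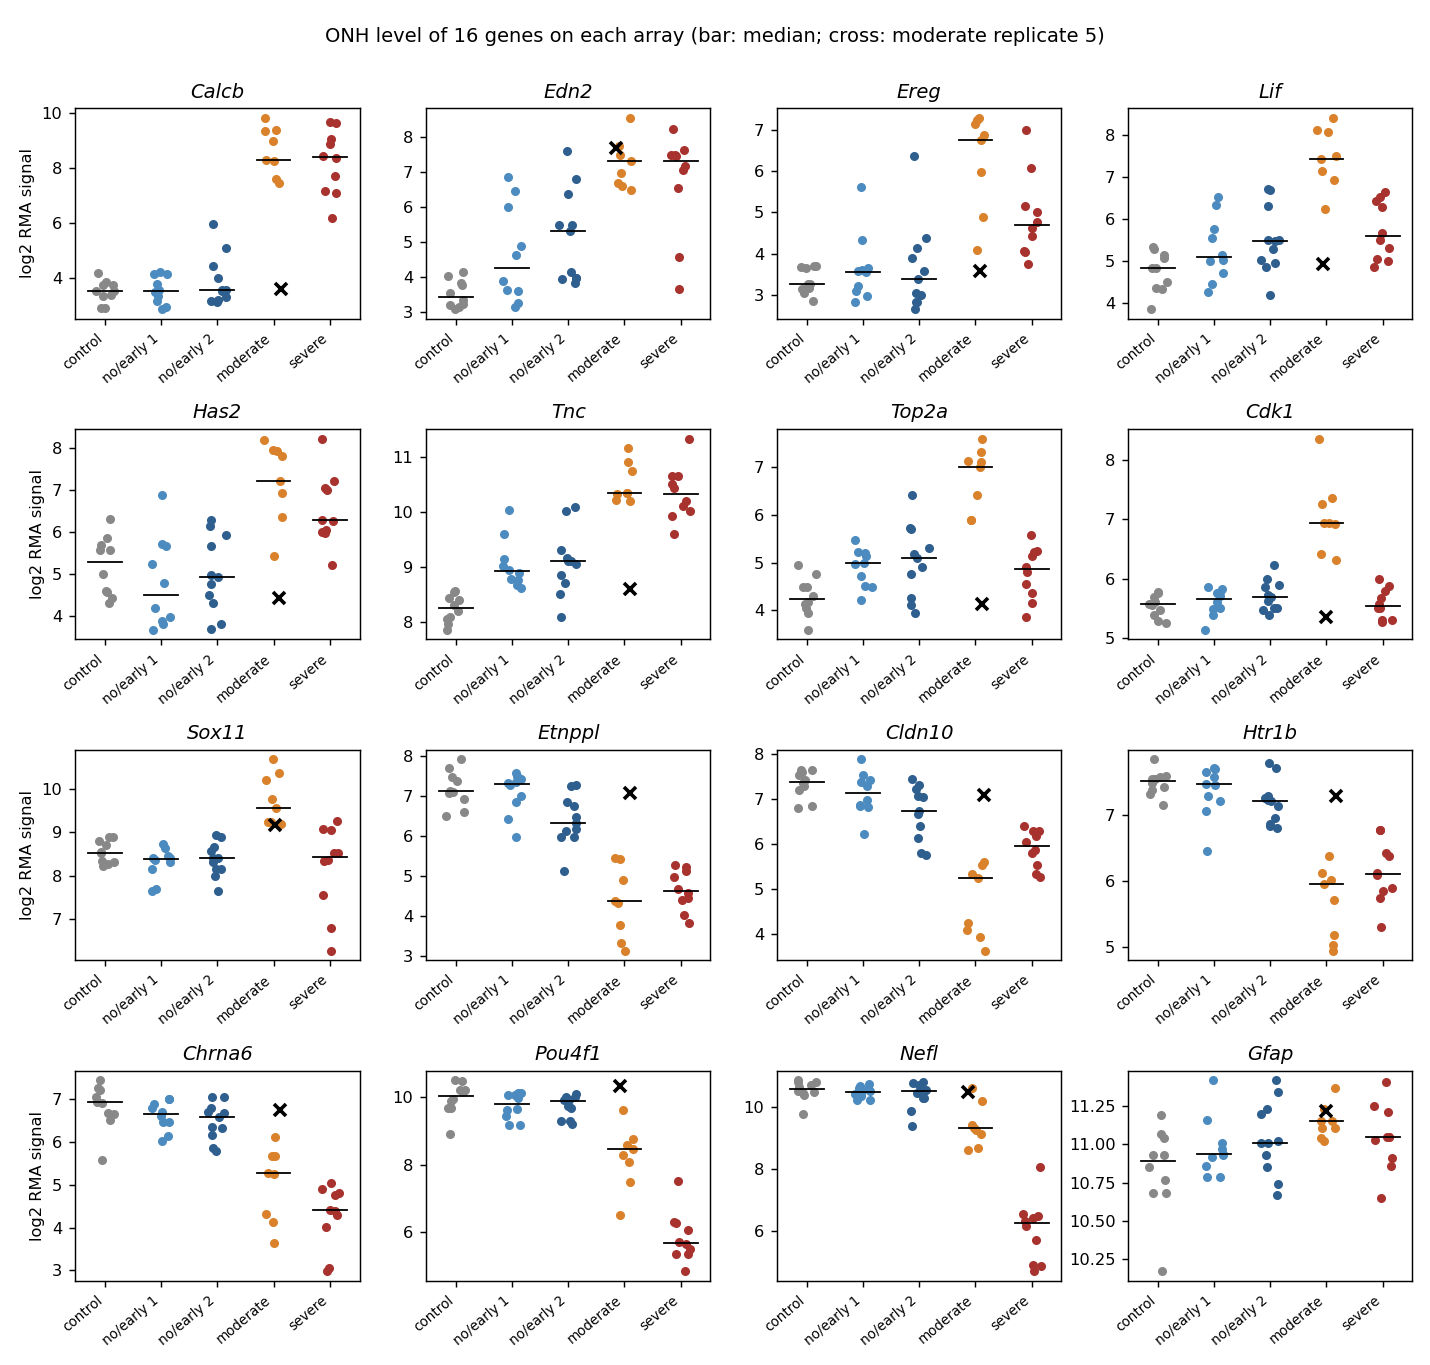
Each panel shows the log2 RMA signal (y axis) of 1 gene on every ONH array of 5 groups, with a bar at the group median and a cross at moderate replicate 5. The moderate arrays other than replicate 5 stand above the reference for Calcb, Tnc and Cdk1, and Edn2 and Sox11 are high on all 9. On the severe arrays, which are other eyes of the same age, Top2a and Cdk1 are at reference levels while Pou4f1 and Nefl are lower than on the moderate arrays.

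Genes of the matrix that cells lay down after injury rose as a part of their list. Of 18 tested genes for hyaluronan and provisional matrix, 6 rose and 1 fell, with a median of 0.01. Has2, a hyaluronan synthase, had reference values of 3.67, 4.78 and 6.88 and moderate values of 4.42, 7.22 and 8.19 (lowest, median, highest). The difference was 2.02 ± 0.37 (adjusted p = 0.000168), and replicate 5 gave the lowest moderate value. Ptx3, whose product cross-links hyaluronan, rose by 1.89 ± 0.33 (adjusted p = 7.91e-05). Tnc, the matrix glycoprotein tenascin C, ran from 8.09 through 9.02 to 10.09 on the reference arrays. On the moderate arrays it ran from 8.59 through 10.34 to 11.17, and the 8 arrays other than replicate 5 began at 10.21. The Tnc difference was 1.26 ± 0.19 (adjusted p = 1.15e-05). Vcan (versican) rose by 1.10 ± 0.25 and Cd44, the hyaluronan receptor gene, by 0.54 ± 0.11 (adjusted p = 0.00262 and 0.000541). The protease inhibitor gene Timp1 rose by 1.32 ± 0.31, whereas its relatives Timp4 and Timp3 fell by 0.78 and 0.15 (adjusted p = 0.00328, 0.00148 and 0.0272), the call on Timp3 being lost without moderate replicate 1, 3, 8 or 10. Collagens and basement membrane genes passed in 2 of 33 cases, Plod2 (0.47) and Col4a2 (0.44), and they were called in 15 and 18 of the 30 fits that left out 1 array (0.42 to 0.57 and 0.36 to 0.52). The same list of provisional matrix held the rise of Fn1 (fibronectin, 0.44, called in 22 of the 30 fits) and the fall of Hapln1, a hyaluronan link protein gene (-0.79).

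Genes of cell division rose in large part. Of 28 tested genes for mitosis, 22 rose and none fell, with a median of 0.93. A further 23 members were too dim for the filter, so the 28 are not the whole list. Since the filter can be met by the moderate arrays alone, it favours genes that are high there: 4 of the 28 passed it only through them, and of the other 24, 19 rose (median 1.02). With no filter 36 of all 51 members on the array rose and 1 fell (median 0.64), a count added after the first was seen. A fit with no filter called 411 of all 18194 genes higher and 541 lower. Of 26 tested genes for DNA replication, 11 rose and none fell, with a median of 0.28. Of these 26, 2 passed the filter only through the moderate arrays, and 9 of the other 24 rose (median 0.26). With no filter 9 of all 32 replication members on the array rose and none fell. Without replicate 5, 22 of the 28 mitosis genes and 13 of the 26 replication genes rose. Top2a, the topoisomerase that untangles chromosomes, ran from 3.95 through 4.99 to 6.41 on the reference arrays and from 4.13 through 7.0 to 7.6 on the moderate arrays. Cdk1, the kinase that starts mitosis, ran from 5.14 through 5.69 to 6.22 and from 5.35 through 6.93 to 8.35. For both genes the value of replicate 5 was the lowest of the moderate group and below the reference median. The differences were 1.55 ± 0.25 for Top2a and 1.21 ± 0.15 for Cdk1 (adjusted p = 2.32e-05 and 2.06e-07).

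Other genes of division rose by similar amounts. The cytokinesis genes Cep55 and Prc1 rose by 2.06 ± 0.33 and 1.65 ± 0.25, and the mitotic kinase gene Pbk by 1.86 ± 0.23 (adjusted p = 2.13e-05, 1.04e-05 and 9.91e-08). The spindle gene Tpx2 rose by 1.45 ± 0.29, the ubiquitin conjugating enzyme gene Ube2c by 1.41 ± 0.22 and the proliferation marker gene Mki67 by 1.04 ± 0.22 (adjusted p = 0.000624, 2.13e-05 and 0.00118). For the supply of nucleotides, Rrm2, a subunit of ribonucleotide reductase, rose by 1.58 ± 0.28 and the thymidine kinase gene Tk1 by 1.36 ± 0.23 (adjusted p = 0.000139 and 6.47e-05). Uhrf1, which maintains DNA methylation at replication, rose by 1.13 ± 0.21 (adjusted p = 0.00022). Brakes of the cycle moved less, as 2 of 17 tested genes of that list rose (Gadd45a by 0.69 and Cdkn2c by 0.51) and 1 fell (Sesn1 by 0.23).

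Mitotic genes are known to share promoter elements, the cell cycle gene homology region TTTGAA and the CCAAT box that binds NF-Y. The stretch of 150 bases before the transcription start is shown for 3 risen genes because they moved together, with both elements in capitals in either orientation (TTTGAA or TTCAAA, and CCAAT or ATTGG). The sequences are those of RefSeq on GRCm38.p6, the C57BL/6J reference and not DBA/2J, at chr10:69352913-69353062 on the minus strand for Cdk1, chr11:99024190-99024339 on the minus strand for Top2a and chr2:164769779-164769928 on the plus strand for Ube2c.
Cdk1: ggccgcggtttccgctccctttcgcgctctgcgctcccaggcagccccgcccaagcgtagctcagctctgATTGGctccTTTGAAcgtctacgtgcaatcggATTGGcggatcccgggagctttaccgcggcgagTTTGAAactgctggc
Top2a: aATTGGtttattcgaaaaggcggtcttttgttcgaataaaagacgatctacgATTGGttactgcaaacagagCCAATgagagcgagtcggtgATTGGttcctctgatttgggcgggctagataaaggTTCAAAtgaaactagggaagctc
Ube2c: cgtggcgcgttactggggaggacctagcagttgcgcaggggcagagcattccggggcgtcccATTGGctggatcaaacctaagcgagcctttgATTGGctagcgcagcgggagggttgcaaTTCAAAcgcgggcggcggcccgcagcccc
The TTTGAA element began 15 bases before the start in Cdk1, with another at 71, and its reverse began 23 bases before the start in Top2a and 29 in Ube2c. In a window from 250 bases before to 50 after the start, TTTGAA on either strand was present in 13 of the 18 risen mitosis genes with a RefSeq window (72.2%). Over all 27025 genes with a window the share was 20.2%, and over the tested ONH genes 13.8%. CCAAT on either strand stood in 13 of the 18 (72.2%) against 41.1% of all genes, and both elements stood in 12 (66.7%) against 8.0%. Of all 44 mitosis genes with a window, measured or not, 30 held TTTGAA (68.2%). The 9 risen replication genes with a window held TTTGAA in 1 case. These are letter matches and do not show that a factor was bound.

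Neuronal injury genes rose in part. Of 25 tested genes of the axon injury response 7 rose and none fell, with a median of 0.12. Without the 1 member that met the filter only through the moderate arrays, 6 of 24 rose. Sox11, a transcription factor that ganglion cells switch on after axon damage, had reference values from 7.65 through 8.4 to 8.95 and moderate values from 9.16 through 9.56 to 10.68. All 9 moderate arrays were above all 21 reference arrays, replicate 5 with 9.16 included. The difference was 1.39 ± 0.21 (adjusted p = 1.08e-05), and 4 other probe sets of Sox11 gave 1.37 to 1.49. Ecel1, a membrane protease gene of injured neurons, rose by 0.66 ± 0.11, the secreted neuropeptide precursor gene Vgf by 1.24 ± 0.35, and Tnfrsf12a, the receptor gene for TWEAK, by 1.08 ± 0.23 (adjusted p = 5.9e-05, 0.0184 and 0.00142). The call on Vgf was lost without moderate replicate 8 or 9. Crh, the gene of corticotropin-releasing hormone, rose by 0.95 ± 0.31 (adjusted p = 0.0472), but was called in 12 of the 30 fits that left out 1 array (0.85 to 1.10). On replicate 5 the levels of Ecel1 (5.28) and Edn2 lay inside the range of the other moderate arrays. Its Sox11 level was the lowest of the moderate group but above every reference array, whereas its levels of Calcb, Top2a and Tnc were the lowest of the group and inside the reference range. Atf3, an early transcription factor of damaged neurons, ran from 6.71 to 8.91 on the reference arrays and from 7.62 to 8.44 on the moderate arrays and did not pass (0.21 ± 0.23, adjusted p = 0.678). In the amino acid stress response, where ATF4 drives one-carbon and amino acid genes, 3 of 23 tested genes rose, namely Mthfd2 (0.67), Chac1 (0.67) and Atf4 itself (0.25).

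Ganglion cell genes fell. Of 12 tested transcription factors of these cells 5 fell and none rose (median -0.31), and of 21 genes for their surface proteins and receptors 12 fell and none rose (median -0.56). In whole tissue, fewer ganglion cells in the punch and less RNA per cell cannot be told apart. Pou4f1, the transcription factor BRN3A, had reference values from 9.18 through 9.90 to 10.13 and moderate values from 6.53 through 8.48 to 10.34. The moderate range was wide: 7 arrays lay below all reference arrays, and replicate 5 had the highest value of all 30 arrays. The difference was -1.26 ± 0.23 (adjusted p = 0.000187), and -1.49 without replicate 5. Tbr1 (-0.69), Ebf3 (-0.50), Irx2 (-0.36) and Satb1 (-0.26) were the other factors that passed. Tbr1 was not called without moderate replicate 2 or 9 and Ebf3 not without replicate 8, and Irx2 and Satb1 were called in 23 and 22 of 30 such fits (-0.40 to -0.30 and -0.28 to -0.23).

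Receptors carried the steepest ganglion cell falls. Htr1b, a serotonin receptor gene, ran from 6.45 through 7.25 to 7.79 on the reference arrays and from 4.95 through 5.96 to 7.29 on the moderate arrays. The 8 moderate arrays other than replicate 5 were below every reference array. Its difference was -1.42 ± 0.17 (adjusted p = 9.91e-08). Of the nicotinic acetylcholine receptor subunit genes, Chrna6 fell by 1.34 ± 0.23, Chrnb3 by 1.00 ± 0.19, Chrna4 by 0.70 ± 0.18 and Chrna3 by 0.62 ± 0.15 (adjusted p = 6.57e-05, 0.000261, 0.00817 and 0.00548). A second Chrna4 probe set of like brightness gave -0.02. Slc17a6, which loads glutamate into the vesicles of ganglion cells, fell by 0.86 ± 0.21 (adjusted p = 0.00618). The potassium channel Kcnd2, listed among ganglion cell surface genes, and its partner Kcnip4 fell by 1.11 ± 0.25 and 1.21 ± 0.22 (adjusted p = 0.00216 and 0.00016). Sncg, the gamma-synuclein gene often used to mark these cells, fell by 0.54 ± 0.14 (adjusted p = 0.00867).

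Genes of the axon also fell, unequally. The axon initial segment and the nodes of Ranvier are where action potentials are made, and 10 of 19 tested genes of these sites fell while none rose (median -0.60). Kcnq3, a subunit of the M-type potassium channel held at those sites, ran from 6.22 through 7.91 to 8.4 and from 4.40 through 6.59 to 8.12, a difference of -1.29 ± 0.26 (adjusted p = 0.000591). Only 2 moderate arrays were below all reference arrays. Sptbn4, the spectrin of the initial segment, fell by 1.13 ± 0.22, the sodium channel gene Scn1a by 1.05 ± 0.30 (not called without moderate replicate 8, 9 or 10) and the anchor gene Ank3 by 0.60 ± 0.15 (adjusted p = 0.000366, 0.0198 and 0.00524). Of 16 tested filament and microtubule genes 4 fell, among them Nefl by 0.89 ± 0.22, Nefm by 0.64 ± 0.16 and Mapt by 0.70 ± 0.15 (adjusted p = 0.00517, 0.00644 and 0.00141).

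Motors for axonal transport were lower in 7 of 20 tested cases and higher in none (median -0.16). The kinesin gene Kif21a ran from 10.67 through 10.90 to 11.19 on the reference arrays and from 10.12 through 10.34 to 10.66 on the moderate arrays, so the groups did not overlap. Its difference was small at -0.53 ± 0.11 (adjusted p = 0.000625), and another probe set gave -0.93. Kif1a and Kif5c, which carry synaptic cargo and mitochondria, fell by 0.68 ± 0.15 and 0.56 ± 0.09 (adjusted p = 0.00145 and 1.23e-05). Kif5b fell by 0.46 on the probe set used, while another of its probe sets gave 0.23. The weakest other probe set above the filter gave -0.39 for Scn1a, -0.21 for Ank3, -0.36 for Mapt and -0.07 for Fgf14. Potassium channels fell in 9 of 26 tested cases, and glutamate, GABA and glycine receptors in 8 of 20 (medians -0.42 and -0.50). The vesicle release list had 3 of 25, with Unc13c at -1.06 ± 0.19, Cplx1 at -0.85 ± 0.22 and Vamp1 at -0.51 ± 0.14 (adjusted p = 0.000116, 0.00924 and 0.0169). The call on Vamp1 was lost without moderate replicate 2, 7 or 10 (-0.63 to -0.42 over the 30 fits).

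Among the largest falls were genes of astrocyte metabolism and support. Etnppl, an enzyme of phosphoethanolamine breakdown that marks resting astrocytes, ran from 5.12 through 6.84 to 7.56 on the reference arrays and from 3.13 through 4.38 to 7.06 on the moderate arrays. Its value of 7.06 was that of replicate 5, and the other moderate arrays ended at 5.44. The difference was -2.09 ± 0.26 (adjusted p = 2.06e-07), the steepest fall among the tested genes with all 9 arrays, and the other Etnppl probe set above the filter gave -1.01. Cldn10, a claudin, fell by 1.93 ± 0.24, and all moderate arrays except replicate 5 were below the whole reference range (adjusted p = 9.91e-08). Aldoc, the aldolase of astrocytes, fell by 0.70 ± 0.15, the glutamate transporter gene Slc1a3 by 0.23 ± 0.07 and Glul, the glutamine synthetase gene, by 0.15 ± 0.04 (adjusted p = 0.00136, 0.0182 and 0.0234, the last not called without moderate replicate 2, 9 or 10). In all, 8 of 27 tested astrocyte channels, transporters and enzymes fell and 1, Chrdl1, rose by 0.57 (median -0.23). Aqp4, the water channel of astrocyte end feet, was lower by 0.63 ± 0.22 and did not pass (adjusted p = 0.0638).

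Of 32 tested genes of reactive astrocytes, 7 rose and none fell (median 0.22), namely Ptx3, Sox11, Timp1, Tnc, Clcf1, Cd44 and Osmr, and each of them also belongs to a list above. Of these 32, 2 met the filter only through the moderate arrays, and 6 of the other 30 rose. Gfap, the filament gene by which reactive astrocytes are usually recognised, ran from 10.67 through 10.97 to 11.42 on the reference arrays and from 11.02 through 11.15 to 11.37 on the moderate arrays. The groups overlapped, although all 9 moderate arrays lay above the reference median. The difference of 0.15 ± 0.09 did not pass (adjusted p = 0.336), and other Gfap probe sets gave 0.08 and 0.30.

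Other large falls came from varied genes. Orm2, an orosomucoid acute phase protein gene, had reference values from 6.28 through 7.57 to 8.51 and moderate values from 4.02 through 5.57 to 6.89, with all 9 moderate arrays below the reference median. It fell by 1.94 ± 0.27, and Orm1 by 0.91 ± 0.28 (adjusted p = 2.16e-06 and 0.0325), the latter call being lost without moderate replicate 2, 3, 5, 8 or 9. Because these genes are near-identical copies, a probe set of one may also bind transcripts of the other. Gpr50, a receptor gene related to melatonin receptors, fell by 1.86 ± 0.54 (adjusted p = 0.0219), but its reference values spread from 2.59 to 8.06 and the call was lost without moderate replicate 2. The progesterone receptor gene Pgr fell by 1.09 ± 0.17, and Scrg1, a gene of glial cells, by 1.05 ± 0.20 (adjusted p = 2.07e-05 and 0.000386). The non-coding 4930426D05Rik, Smim17 and Galntl6, for which no role is given here, fell by 1.52 ± 0.24, 1.18 ± 0.28 and 1.14 ± 0.28 (adjusted p = 1.85e-05, 0.00364 and 0.00458). Another probe set of Galntl6 gave -0.40. The transcription factor genes Bcl11b and Fezf2 fell by 0.94 ± 0.15 and 0.96 ± 0.22 (adjusted p = 2.69e-05 and 0.0028).

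Immune lists held few calls in number, at most 3 each with all 9 moderate arrays, where 2.85% of all tested genes passed as higher. The shares of complement, chemokine and cytokine, and interferon response genes that rose were larger than this. Of 26 tested microglia and macrophage genes 1 rose, Fcgr1 by 0.79 ± 0.21 (adjusted p = 0.0119), and the median was -0.02. Of 19 tested complement genes 3 rose, Cfi by 0.87, C5ar1 by 0.78 and C1qa by 0.61 (adjusted p = 0.0115, 0.0092 and 0.032). The call on Fcgr1 was lost without moderate replicate 2, and that on C1qa without replicate 2, 3, 8, 9 or 10 (0.52 to 0.79 over the 30 fits). Of 25 tested chemokines and cytokines 3 rose, Il1b by 1.14, Ccl2 by 0.96 and Ccl12 by 0.95 (adjusted p = 0.0198, 0.0187 and 0.031), and all 3 calls were lost without moderate replicate 2 or 9. Interferon response genes had a positive difference in 21 of 22 tested cases with a median of 0.42, but 2 passed, Irf7 (0.66) and Irf9 (0.43), and 7 without replicate 5. These 2 were called in 18 and 25 of the 30 fits that left out 1 array. No gene of antigen presentation passed among 12 tested, with limma, and 0.18 was the highest difference there.

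**Figure D3:**
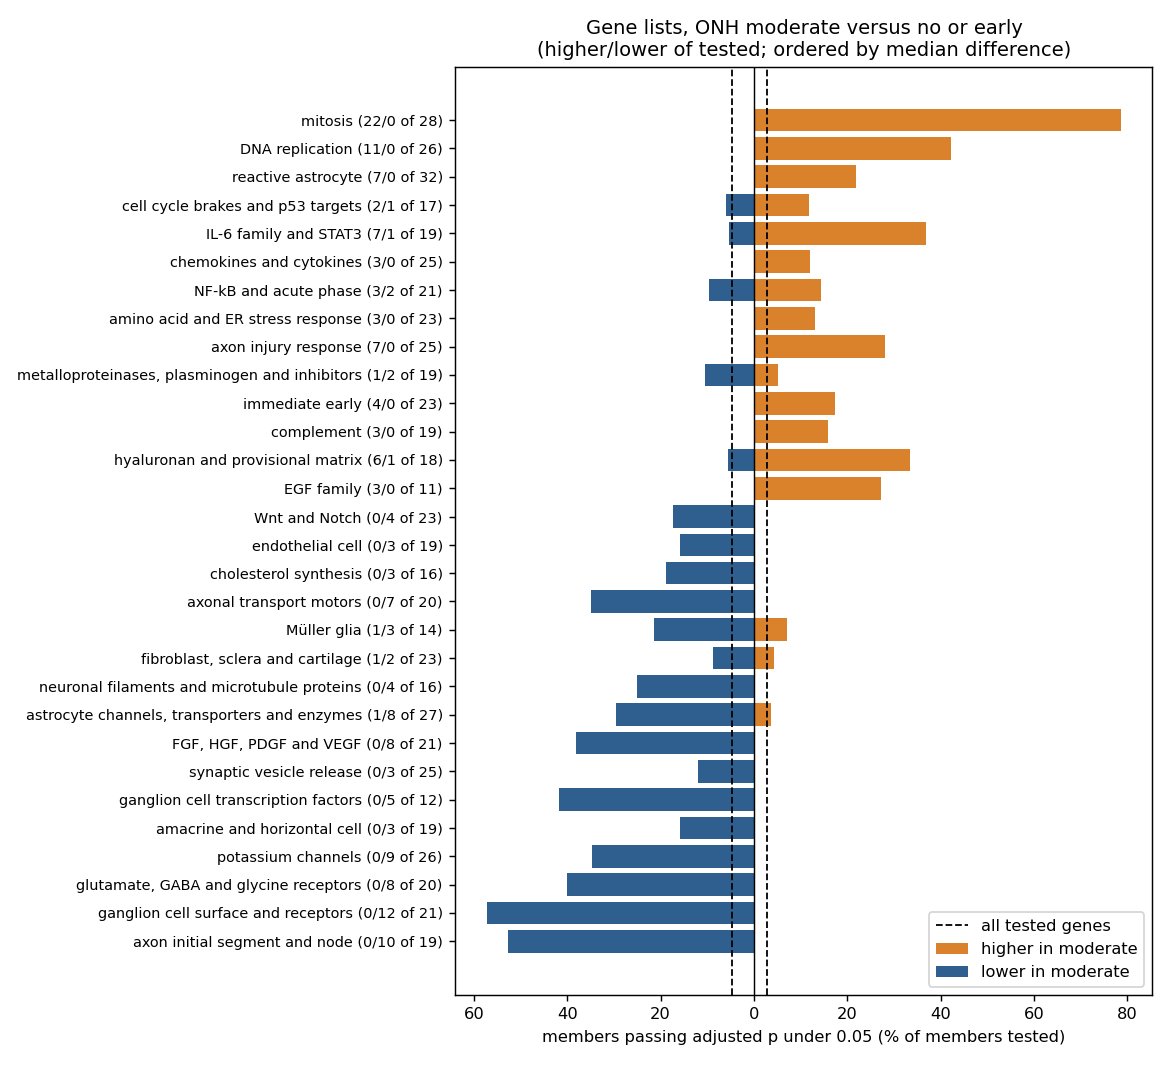
Bars give the share of tested members (x axis, percent) that passed as higher (orange, right) or lower (blue, left) in moderate eyes, for lists with at least 10 tested genes and 3 calls. The dashed lines mark the share over all tested genes, 2.85% higher and 4.62% lower. The lists for mitosis and DNA replication extend farthest to the right while the ganglion cell surface and axon initial segment lists extend farthest to the left. Members that met the filter only through the moderate arrays are included.

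Markers of the other tissues in the punch shifted a little with the groups. The 26 tested photoreceptor genes all had a positive difference with a median of 0.30 and no call, and their summed level per array, as a mean of log2 values, ran from 8.27 to 10.08 on the reference arrays and from 8.74 to 9.95 on the moderate arrays. All 14 tested bipolar cell genes had a negative difference with a median of -0.32, and 1 passed (Rgs11, -0.65). Amacrine and horizontal cell genes fell in 3 of 19 cases with a median of -0.33, among them Calb2 (-0.86), which ganglion cells also express. The mean level of the amacrine list ran from 7.83 to 8.55 and from 7.19 to 8.48 in the reference and the moderate group. With the amacrine and bipolar means as covariates 1229 genes were called, and 11 of 21 ganglion cell surface genes, 10 of 19 initial segment genes and 21 of 28 mitosis genes passed. The median of the ganglion cell surface list was then -0.51 and that of mitosis 0.89. Some medians moved toward 0, the initial segment list to -0.37, glutamate, GABA and glycine receptors to -0.22, potassium channels to -0.21, vesicle release to -0.05 and motors to 0. Others moved away from 0. The photoreceptor median was then 0.78, with 17 of 26 genes called higher. Endothelial genes were then called lower in 6 of 19 cases and pericyte and smooth muscle genes in 4 of 14. The part of the other tissues in the result was not tested further. Myelin genes had no call among 13 tested (median -0.31), and Mbp ranged from 7.81 to 12.13 on the reference arrays. Endothelial genes fell in 3 of 19 cases (Sox17 by 0.60, Slco1a4 by 0.48 and Flt1 by 0.24). Among fibroblast and scleral genes, Igfbp2 rose by 1.22 ± 0.20 (adjusted p = 3.59e-05) while Ogn and Cdh11 fell by 0.45 and 0.32 (not called without moderate replicate 9, and without replicate 2, 4 or 5). No gene passed among 18 tested of the Bcl2 family and caspases, 14 of the pericyte and smooth muscle list or 25 of the mitochondrial respiratory chain.

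The retina of the same eyes was measured for 8 of the 9 moderate and 20 of the 21 no or early eyes, and replicate 5 was not among them. The retina value was first subtracted from the ONH value of the same eye. The moderate minus no or early contrast of these values was then tested over 10748 genes. As replicate 5 is absent from it, this tissue difference need not equal the ONH change given above minus the retina change. In the retina itself 15.7% of genes passed, 8.22% as higher and 7.46% as lower in moderate eyes. The ONH change minus the retina change passed as positive for 0.698% of genes and as negative for 1.52%. Of 19 mitosis genes measured in both tissues 10 passed with a positive tissue difference and none with a negative one (median 0.71). Genes that met the ONH filter only through the moderate arrays were not set apart here. Prc1 differed by 0.17 ± 0.15 in the retina and by 1.79 ± 0.24 between the tissues (adjusted p = 2.31e-06 for the latter), and Tpx2 by -0.17 and 1.94. Of 13 genes for hyaluronan and provisional matrix 2 passed with a positive difference and 2, Sparc and Lgals3, with a negative one (median -0.08). The positive ones were Ptx3, which differed by -0.16 in the retina, and Tnc, by 0.01 there, with tissue differences of 2.36 ± 0.36 and 1.47 ± 0.22 (adjusted p = 2.52e-05 and 1.87e-05).

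In the other direction, Gfap rose by 2.41 ± 0.25 in the retina, where Müller glia begin to express it on injury, and the tissue difference was -2.27 ± 0.25 (adjusted p = 4.3e-08). Atf3 rose by 1.52 in the retina (difference -1.29, adjusted p = 0.00804), and B2m, the light chain of MHC class I, by 0.87 (difference -0.91, adjusted p = 0.000113). Of 10 microglia genes measured in both tissues, 6 passed with a negative tissue difference and none with a positive one. Etnppl differed by 0.01 in the retina and by -2.36 ± 0.23 between the tissues (adjusted p = 1.52e-09), and Kcnq3 by -0.12 and -1.34 ± 0.27 (adjusted p = 0.00201). Pou4f1 fell in both, by 0.71 ± 0.13 in the retina, and the tissue difference of -0.77 ± 0.22 passed (adjusted p = 0.0397). For Edn2, Sox11, Crym and Htr1b the retina gave 2.55, 1.52, 1.17 and -1.36, and the tissue difference did not pass, with estimates of -0.27 ± 0.45, -0.06 ± 0.24, -0.07 ± 0.23 and -0.24 ± 0.19. Of 21 ganglion cell surface genes measured in both tissues none passed for the difference, whose median was -0.23.

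**Figure D4:**
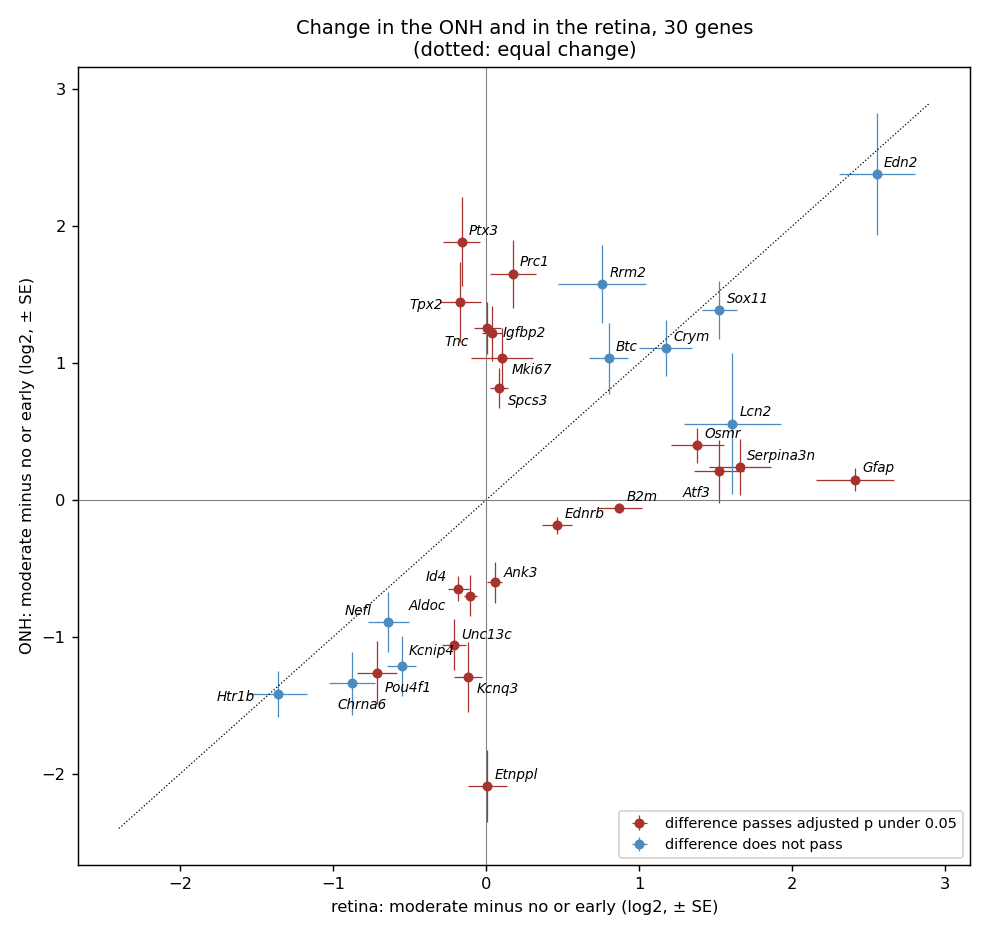
The moderate minus no or early difference (log2, ± SE) of 30 genes is drawn for the retina (x axis) and the ONH (y axis), from 8 and 9 moderate arrays. Ptx3, Tpx2, Prc1 and Tnc lie high at a retina value near 0, Etnppl lies low there, Gfap lies far right near the line of no ONH change, and Edn2 and Sox11 lie near the dotted line of equal change.

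The severe arrays were set against the moderate arrays. The severe and the no or early comparisons share the moderate arrays, so their values are given side by side only. Some mice gave eyes to both the moderate and the severe group. Of the 28 mitosis genes 19 were lower in severe than in moderate eyes and none higher (median -0.83), where 2.46% of all tested genes passed as lower and 1.27% as higher. Of these 28, 4 met the filter only through the moderate arrays, which favours a lower value in severe eyes. The count was not made without them. Top2a on the severe arrays ran from 3.85 through 4.85 to 5.57, below the reference median of 4.99 on 6 of the 10 arrays, and was lower than in moderate eyes by 1.73 ± 0.28 (adjusted p = 2.76e-05). Lif, Il11, Sox11 and Vgf were likewise lower in severe eyes, with severe minus moderate differences of -1.46, -1.25, -1.55 and -1.88 (adjusted p = 0.00254, 0.00478, 7.58e-06 and 0.00169). Calcb (0.13 ± 0.44), Tnc (0.02 ± 0.22), Has2 (-0.36 ± 0.42), Etnppl (0.02 ± 0.30) and Orm2 (0.08 ± 0.31) did not pass between severe and moderate eyes (adjusted p = 0.921, 0.974, 0.727, 0.983 and 0.928). Cldn10 was higher in severe eyes by 0.95 ± 0.27 (adjusted p = 0.0303).

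Some ganglion cell and axon genes were lower still in severe eyes, 10 of 21 ganglion cell surface genes, 6 of 16 filament and microtubule genes, 6 of 20 transport motors, 3 of 19 initial segment genes and 1 of 12 ganglion cell transcription factors, and no gene of these lists was higher. Nefl ran from 8.60 through 9.33 to 10.60 on the moderate arrays and from 4.70 through 6.25 to 8.07 on the severe arrays, with a difference of -3.51 ± 0.25 (adjusted p = 6.83e-17). Pou4f1 was lower by 2.63 ± 0.27 and Slc17a6 by 3.41 ± 0.24 (adjusted p = 5.22e-11 and 8.37e-17). For Htr1b the severe minus moderate difference was 0.29 ± 0.19 and for Kcnq3 0.09 ± 0.30, and neither passed (adjusted p = 0.465 and 0.914). The severe group held 1 array whose photoreceptor mean was 3.86, against a median of 9.45 in that group, and the part of this array in the severe values was not tested.

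Against the D2-Gpnmb+ controls, where 9.68% of genes passed as higher and 11.9% as lower in moderate eyes, 22 of 28 mitosis genes were higher and 1 was lower. The 28 again include the 4 that met the filter only through the moderate arrays. In the no or early eyes against the same controls (2.19% higher and 0.669% lower) no mitosis gene passed, and the median was 0.23. For microglia genes 14 of 26 were higher in moderate and 12 of 26 in no or early eyes, with 1 lower in each. The differences from the controls were 3.84 in moderate and 3.28 in no or early eyes for Lcn2, and 3.70 and 2.38 for Timp1, and all 4 passed. Calcb differed from the controls by 4.61 in moderate and by 0.23 in no or early eyes (adjusted p = 1.47e-11 and 0.818).

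The level of Pou4f1 varied among the 9 moderate eyes, and 5 genes were set against it across these eyes with exact two-sided permutation tests. Pearson's r was -0.829 for Top2a and 0.873 for Etnppl (p = 0.00437 and 0.00243, both 0.0109 after adjustment over the 5 relations). Spearman's rho was -0.817 and 0.75 (p = 0.0108 and 0.0255, adjusted p = 0.0538 and 0.0637). For Calcb, Lif and Edn2 r was -0.723, -0.652 and 0.273, and rho was -0.433, -0.467 and 0.15 (adjusted p = 0.0549, 0.0758 and 0.477 for r, and 0.312, 0.312 and 0.708 for rho, exact permutation). Without the 2 eyes farthest from the median of Pou4f1, replicates 5 and 10, r was -0.57 for Top2a and 0.659 for Etnppl (exact permutation p = 0.194 and 0.101). For Calcb, Lif and Edn2 it was then -0.332, -0.111 and 0.09. Neither relation passed without those 2 eyes, which left fewer eyes and a narrower range of Pou4f1. Without replicate 5 alone r was -0.701 for Top2a and 0.776 for Etnppl.

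The number in each array's description, taken here as the mouse, begins with digits that recur in both groups and may mark when mice were born or entered the study, which the labels do not say. Grouped by these digits, 4 ranges held arrays of both groups, with 2 against 3, 2 against 4, 3 against 7 and 1 against 7 arrays (moderate against no or early). In the first 3 of these limma called 0 genes, although 1745, 1256 and 394 had an unadjusted p below 0.05, and the range with 1 moderate array, assumed to vary like the reference arrays, gave 205. With the range as a factor 522 genes were called, among them 19 mitosis and 11 ganglion cell surface genes. In that order of ranges Calcb differed by 5.62, 3.76, 3.24 and 5.90 and Top2a by 1.87, 0.73, 1.21 and 2.86. Etnppl differed by -2.75, -0.82, -1.54 and -3.61 and Pou4f1 by -1.47, -0.44, -0.61 and -3.34. The direction of these genes was the same in all 4 ranges, and 3 of the 4 reference arrays that lay toward the moderate group on the risen genes were in the range with 2 against 4 arrays.

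**Figure D5:**
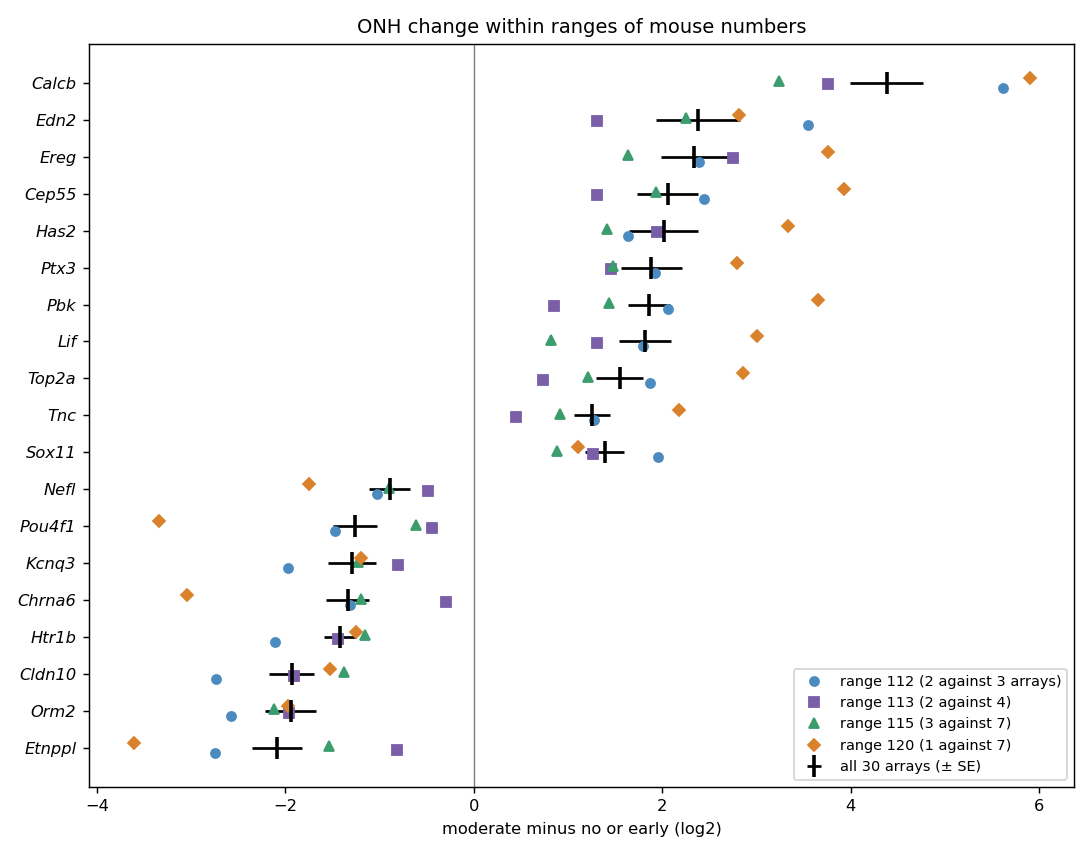
For 19 genes the moderate minus no or early difference (x axis, log2) is drawn over all 30 arrays (black, ± SE) and within each of 4 ranges of mouse numbers (coloured symbols). All values keep the side of 0 of the overall value, and those of the range with 2 against 4 arrays (squares) are often the nearest to 0.

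The number of calls depended on the reference. Against set 1 alone 788 genes passed, and against set 2 alone 314 (1.0% higher and 1.6% lower), with 18 of 28 mitosis and 8 of 21 ganglion cell surface genes among them. The labels of the arrays also came in 2 layouts, 1 of which held all 9 moderate arrays and 7 of the 21 no or early arrays. The 4 reference arrays that lay toward the moderate group on the risen genes were all among these 7. So was no or early 2 replicate 7, which lay toward it on the fallen genes. Against those 7 arrays 53 genes passed (0.182% higher and 0.256% lower), with 10 mitosis and 2 ganglion cell surface genes. The difference there was 4.27 for Calcb, 1.66 for Top2a, -1.91 for Etnppl and -1.24 for Htr1b, and these 4 passed (adjusted p = 1.96e-05, 0.0159, 0.00829 and 0.00628). Edn2 (1.13), Sox11 (1.18), Tnc (0.88), Pou4f1 (-1.12) and Nefl (-0.87) did not (adjusted p = 0.522, 0.068, 0.116, 0.147 and 0.328). Lcn2 was -1.07 there against 0.56 over both sets, and Gpnmb and Mbp also turned sign, without a call in either setting. Whether the layout marks a difference in how the arrays were handled was not tested.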

How the data were processed

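Per the labels' protocols, total RNA of each tissue was amplified and labelled as biotin cDNA (Ovation Biotin System) and hybridised to Affymetrix mouse expression arrays, 1 sample per array. The deposited values are log2 signals per probe set, made with GCOS and with RMA in the affy package per the submitters' processing notes; versions are not given in the sources used here, and the unit was checked from the values (1.81 to 14.31). RMA sets the arrays to a common distribution, so a change in total RNA per sample is not seen.

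Of 45101 probe sets, 34958 were named by 1 gene, 932 by several and 9211 by none in the platform annotation. Each gene was represented by its brightest probe set with 1 gene name, and 12100 genes with a log2 value of at least 5 on at least 8 ONH arrays were tested. One limma fit (version 3.58.1, R 4.3.3) covered all 60 ONH arrays with the mouse as a random block (within-mouse correlation 0.0774). Its contrast was moderate minus the mean of the 2 no or early sets. P-values were adjusted by Benjamini-Hochberg over all genes, and a gene was called at an adjusted p below 0.05. The tissue difference was fitted on ONH minus retina values of 48 eyes. The script was tested on simulated data. Exact permutation tests used scipy 1.17.1.

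Named genes were the 12 steepest rises and 12 steepest falls, from every list the called members with the greatest change (at most 4, or where none was called at most 2 by p) and a set of well-known genes. The members and lists were chosen with earlier results of these data known. Spcs3, Flrt1, Id4, Ppp1r1b, Sowaha, Dtl, Bcl11b, Fezf2, Pgr, Scrg1, Clcf1, Osmr, Socs3, Tpx2, Mki67, Ube2c, Ecel1, Slc17a6, Ank3, Chrna3, Chrna4, Cd44, Aqp4, Lifr, Il6st, Fn1, Hapln1, Satb1 and Nfkbiz, the tissue markers named outside that rule, the tissue differences of Sparc and Lgals3, the list counts by filter and the fit without moderate replicate 5 for lists, were chosen after their values were seen. Alternatives covered the filter, probe sets, normalization, array weights, reference sets, mouse block, mouse ranges, eye side, label layout, retinal covariates and leaving out each array.

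The labels give no pairing by replicate number. The deviations of same-numbered arrays correlated from -0.39 to 0.66, and between moderate and no or early 1 from -0.109 to 0.657. Same-numbered arrays of those groups shared a mouse range for replicates 1, 2, 3, 5 and 10. Replicates are separate eyes, taken as separate mice from the number in each label except where that number repeats. Some genes of the lists were not analysed here.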

Additional observations from a re-analysis of the deposited data

Results flagged for a closer look

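On 30 occasions of 340 groups tested, the highest or lowest array of a group lay far from the rest of its group by Dixon's criterion, where chance alone gives about 1 in 20. The groups were the moderate arrays and no or early 1; no or early 2, with 11 arrays, was not tested. Most of these were moderate replicate 5, whose log2 signal was the lowest of the moderate group for Calcb (3.58, next array 7.46), Prc1 (4.77, next 7.1), Rrm2 (7.18, next 9.12), Top2a (4.13, next 5.89) and Tpx2 (4.93, next 7.72). The same held for Tnc (8.59, next 10.21), Timp1 (6.79, next 8.89), Vcan (7.64, next 9.82), Tnfrsf12a (6.1, next 7.39) and Gadd45a (8.94, next 9.94). It also held for Spcs3 (8.38), Myc (3.86) and Pmaip1 (6.2), and for the immune genes C1qa (6.64), C5ar1 (7.81), Fcgr1 (4.6) and H2-Aa (6.11). Among fallen genes, replicate 5 was the highest moderate array for Id4 (11), Ppp1r1b (4.94) and Sowaha (8.97). These 3 and Spcs3 were named because the other 8 moderate arrays stood clear of the reference, a choice that favours such an outlier. Moderate replicate 2 stood out for Crym (11.46, next 10.01).

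In no or early set 1, replicate 3 stood out with high values of Ngfr (7.59), Cryba2 (5.27) and Pvalb (8.96) and a low value of Lyz1 (11.81). Replicate 9 was high for Pbk (4.68), replicate 6 low for Htr1b (6.45), replicate 8 low for Btc (4.36), replicate 10 low for Grin2b (7.31) and replicate 1 low for Tpx2 (5.3).

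Of 127 named genes measured in both tissues, 33 had an ONH change that differed from the retina change in the limma fit on ONH minus retina values. Over all 10748 genes 0.698% passed as positive and 1.52% as negative. Many named genes were chosen by the size of their ONH change, which enters this difference. A larger share among them is therefore built in. The difference was positive for Ptx3 (2.36), Tpx2 (1.94), Prc1 (1.79), Tnc (1.47), Igfbp2 (1.35), Mki67 (1.14), Spcs3 (0.87), Gadd45a (0.67) and Dusp5 (0.57). It was negative for the astrocyte genes Etnppl (-2.36), Aldoc (-0.71), Slc1a3 (-0.43) and Id4 (-0.54), and for Ednrb (-0.68), Timp3 (-0.41), Ptprz1 (-0.52) and Fzd5 (-0.46). Among genes of neurons and axons it was negative for Kcnq3 (-1.34), Unc13c (-0.91), Pou4f1 (-0.77), Ank3 (-0.74), Rgs11 (-0.75), Kif5b (-0.63), Kif21a (-0.45) and Kif5c (-0.43). Other negative values were those of Sowaha (-0.91), Flrt1 (-0.58), Sox17 (-0.62) and the receptor gene Osmr (-0.90). For Gfap (-2.27), Atf3 (-1.29), Lyz1 (-1.15) and B2m (-0.91) the tissue difference passed while the ONH change itself did not.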

How the results depend on the processing

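The number of called genes, 904 as reported, stayed within 1.5 times of that under 12 of 22 other settings beside those that left out 1 array, from 712 when a gene's probe sets were averaged to 1229 with amacrine and bipolar means as covariates (569 higher against 345 as reported). It was 1550 when arrays were weighted, 1635 with means of photoreceptor and pigment epithelium genes as covariates, 522 with the mouse range as a factor, 314 against no or early 2 alone and 53 against the 7 reference arrays with the label layout of the moderate arrays. It was 0, 0, 0 and 205 within the 4 mouse ranges (2 against 3, 2 against 4, 3 against 7 and 1 against 7 arrays), and 73 at 2-fold or more. Leaving out 1 array gave 597 (without moderate replicate 2) to 1409 (without moderate replicate 5), and the latter with only the moderate and no or early arrays gave 1524. With the replicate number as a block, 1038 genes were called. Between the moderate and the no or early arrays the numbers mark no shared animal, while moderate and severe replicate 3 carry the same mouse number. The labels do not say whether the replicate numbers mark a batch. Across moderate eyes, r of Pou4f1 with Top2a was -0.57 and with Etnppl 0.659 without the 2 farthest eyes.

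The sign of a single gene turned in 38 pairs of a gene and a setting, mostly within small ranges and for values near 0; the cause was not tested. In the range with 2 against 4 arrays it did so for Galntl6 (0.19), Gpnmb (0.124), Gfap (-0.179), Lcn2 (-0.542), Mbp (0.982), Fgf14 (0.333), Chrdl1 (-0.0593), Uhrf1 (-0.136), Tbr1 (0.0502), Ebf3 (0.0855), Kcnd2 (0.0768), Cfi (-0.211), Cryab (-0.0126), Gabrb1 (0.0126), Gabra3 (0.00893), Pmaip1 (-0.149), Bak1 (-0.404) and Ier3 (-0.0134). With 1 against 7 it did so for Gpnmb (0.118), Cxcr4 (0.0978), Lyz1 (0.135), B2m (0.00432), Pde6c (-0.0851), Penk (0.0472), Cryba2 (0.0372) and Orm1 (0.173). With 3 against 7 it did so for Lcn2 (-0.192), Atf3 (-0.19), Nkx6-2 (0.0379), Sdha (0.0255) and Chrna3 (0.00889), and with 2 against 3 for Rpe65 (0.0468), Cryab (-0.0168) and Aqp4 (0.0271). Against the arrays of the same label layout, Gpnmb (0.0663), Lcn2 (-1.07) and Mbp (0.0304) turned, and against no or early 1 alone Cryba2 (0.0309). Genes near background, such as 23 mitosis genes below the filter, were left out by that filter. With none, 15 of these 23 were called higher and 1 lower. A fit with no filter called 411 of all 18194 genes higher and 541 lower.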

Other observations

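Some genes of groups not described above passed. Over all tested genes 2.85% passed as higher and 4.62% as lower. Of 23 tested immediate early genes 4 rose, the phosphatase gene Dusp5 by 0.65 ± 0.13, Myc by 0.80 ± 0.24, Ier3 by 0.53 ± 0.15 and the growth factor signalling inhibitor gene Spry2 by 0.21 ± 0.07 (limma adjusted p = 0.000741, 0.0286, 0.0183 and 0.0446). Of the 30 fits that left out 1 array, Myc was called in 24 (not without moderate replicate 3, 4, 7, 8, 9 or 10), Ier3 in 29 (not without replicate 9) and Spry2 in 11. Of 21 NF-kB and acute phase genes 3 rose, Cebpd, Bcl3 and Nfkbiz (0.46), and 2 fell, Orm1 and Orm2, with Nfkbiz not called without moderate replicate 8 or 9. Of 27 tested integrin and adhesion genes 2 rose, the fibronectin receptor subunit gene Itga5 by 0.54 and the actin-binding gene Tagln2 by 0.56. The call on Itga5 was lost without moderate replicate 2, 4, 8, 9 or 10 and that on Tagln2 without replicate 8. The vessel wall adhesion gene Vcam1 rose by 0.49, 1 of 18 in its list, and was not called without replicate 8 or 9. No gene of the integrin or the vessel wall list was called against no or early 2 alone. The same held with the mouse range as a factor.

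Of 23 tested Wnt and Notch genes 4 fell, the receptor gene Fzd5 by 0.31, the nuclear effector gene Lef1 by 0.45 and the secreted modulators Sfrp1 and Sfrp2 by 0.38 and 0.47. Lef1 was not called without moderate replicate 2, Sfrp1 not without replicate 1, 3 or 8 and Sfrp2 not without replicate 2, 4, 8 or 9. Of 16 cholesterol synthesis genes 3 fell, the lanosterol synthase gene Lss by 0.55 and the regulators Srebf2 and Insig1 by 0.30 and 0.19, the calls on both regulators being lost without moderate replicate 2. Ptprz1, a receptor phosphatase gene of glial precursors, fell by 0.67 ± 0.11 (adjusted p = 2.39e-05). The low-affinity neurotrophin receptor gene Ngfr fell by 0.34 (adjusted p = 0.0428) and was called in 16 of the 30 fits that left out 1 array. Crym, a thyroid hormone binding protein gene on the Müller glia list, rose by 1.11 ± 0.20 (adjusted p = 0.000182), while 3 other members of that list, Rlbp1, Slc1a3 and Glul, fell by 0.43, 0.23 and 0.15. Rlbp1 was not called without moderate replicate 1, 3, 7, 8 or 10.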
